A study of Mus musculus with 18 samples.

Results

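The step from the DN3 to the DP stage of mouse thymocytes during thymus autonomy was read from 5 DN3 autonomy and 5 DP autonomy libraries, 10 of the 18 libraries of the study. They were chosen by their labels alone: every library labelled autonomy, with DP set against DN3. All groups came from wild-type thymi that had been grafted for 28 days. DN3 cells, which carry neither CD4 nor CD8, and DP cells, which carry both, were sorted by flow cytometry, and their messenger RNA was sequenced in bulk. In turnover, thymocytes of the graft are replaced by progenitors that enter from outside, and in autonomy the graft keeps itself without them. The 4 DN3 turnover and 4 DP turnover libraries serve below as the like step in the other condition. For the hosts, strain, sex and age of the mice, values were not given in the sources used here. Nothing in the labels ties a library to an animal of its own. A p-value then covers only the spread between libraries, which may be technical.

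At the DN3 stage thymocytes depend on Notch and interleukin 7, cut and rejoin the T-cell receptor beta locus, and test the product in a pre-receptor made with the Ptcra chain. Cells that pass this test, called beta selection, divide fast, switch on CD4 and CD8 and become DP cells. Most DP cells have left the cycle, rearrange the alpha locus with the Rag recombinase and depend for survival on the Bcl-xL protein, which Bcl2l1 encodes.

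A level below is in CPM, the deposited counts scaled to a common library size with TMM factors, and is given as the mean ± SD over 5 libraries. CPM is not corrected for gene length, so levels are compared within a gene only. A log2 fold is DP over DN3 from edgeR's quasi-likelihood test with its standard error (SE). A gene is called where its Benjamini-Hochberg adjusted p over all genes tested is under 0.05. Values of single libraries follow the order RP1133, RP1134, RP1135, RP1137 and RP1138 for DN3 and RP1133, RP1135, RP1136, RP1137 and RP1138 for DP.

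The DN3 autonomy libraries held 7426834 to 21808512 counts and the DP autonomy libraries 5032273 to 20076446. The first principal component carried 59.3% of the variance. Of 10274 genes tested, 5382 were called (52.4%), 2766 of them higher in DP (26.9%) and 2616 lower (25.5%). A count from any gene list is read against that background, in which most genes were called. With a change of at least 2-fold as well, 3708 genes were left (36.1%), 1940 higher (18.9%) and 1768 lower (17.2%). Scaling by library totals in place of TMM moved the median log2 fold of all genes from 0.04 to 0.21 and the share of calls that were higher from 51.4% to 59.5%. In bulk libraries fewer cells of a type and less RNA per cell cannot be told apart.

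The labelled stages were first set against their defining genes. All 9 genes of a DP marker list were called higher in DP and all 8 of a DN3 marker list lower, and the libraries of the stages did not overlap for any of them (41.3% of all genes tested did not overlap). Cd4, the coreceptor for class II molecules (ENSMUSG00000023274, GRCm38 chromosome 6, 124864692 to 124888221), stood at 7.397, 3.64, 1.88, 2.89 and 2.08 CPM in the DN3 libraries and at 803, 646, 819, 877 and 825 CPM in the DP libraries (log2 7.80, SE 0.36, edgeR adjusted p = 7.53e-09). Cd8a, a chain of the coreceptor for class I molecules (ENSMUSG00000053977, GRCm38 chromosome 6, 71373427 to 71379173), was at 64.4, 62.4, 43.8, 36.9 and 67.8 CPM in DN3 and at 2065, 2117, 2136, 2012 and 2047 CPM in DP (log2 5.23, SE 0.19, edgeR adjusted p = 1.79e-09). The DN3 libraries were thus low for both coreceptors, and for Cd8a clearly above 0. Cd8b1, the partner chain of Cd8a, rose from 91.7 ± 22.5 to 2721 ± 369.5 CPM (log2 4.89, SE 0.19). Ptcra, the pre-receptor alpha chain, went the other way, from 382, 435, 559.9, 325 and 264 CPM to 70.4, 127, 80.01, 72.03 and 56.8 CPM (log2 −2.27, SE 0.24, edgeR adjusted p = 4.86e-06). It remained well above 0 in every DP library. Il2ra, the CD25 antigen of DN3 cells, fell from 372 ± 142 to 29.4 ± 9.39 CPM (log2 −3.65, SE 0.30).

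**Figure D1:**
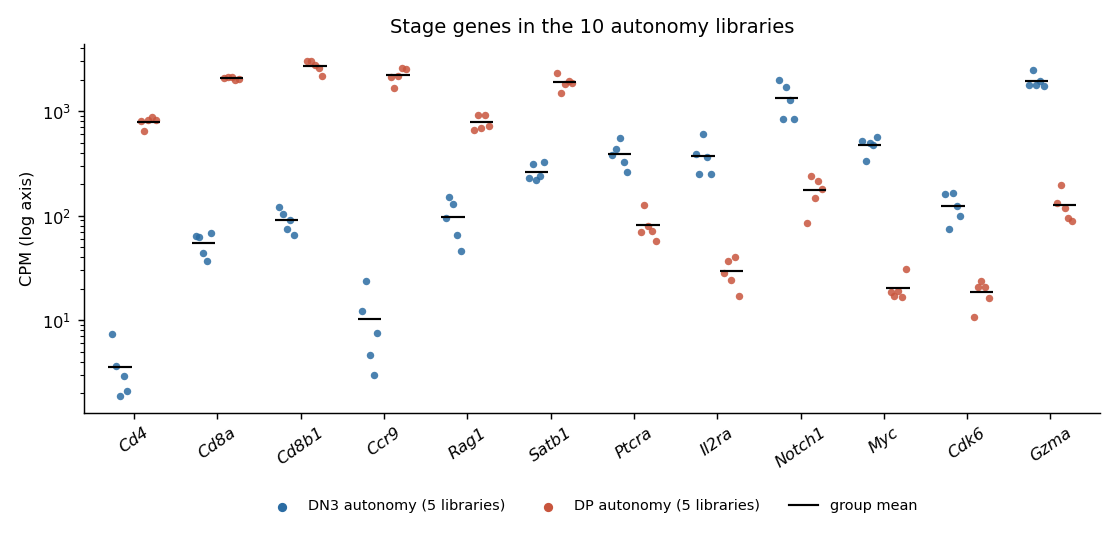
Levels in CPM on a log axis of 12 genes, with 1 point for each of the 5 DN3 autonomy and 5 DP autonomy libraries and a bar at the group mean. Cd4 lies at 1.88 to 7.397 CPM in DN3 and at 646 to 877 CPM in DP, and none of the 12 genes has overlapping stages.

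Most genes on a list of coreceptors and other DP-stage genes moved with Cd4. Of 19 tested, 17 rose and 0 fell (median log2 2.27, against 0.04 over all genes tested). Cd52, a small surface glycoprotein of lymphocytes, stood at 2.63, 3.06, 3.86, 4.67 and 5.09 CPM in DN3 and at 521, 605, 509, 448 and 293 CPM in DP (log2 6.92, SE 0.27, edgeR adjusted p = 1.79e-09). Cd1d1, which presents lipids to NKT precursors, rose from 33.9 ± 2.48 to 136 ± 15.6 CPM. The 2 that were not called, Ly6d and Tcf12, are named here after their values were seen; 1 gene fell without the DN3 library RP1138.

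Receptor gene segments were summed by class. Alpha V segments went from 23.6 ± 4.23 to 408 ± 31.1 summed CPM, with 46 of 48 tested segments called higher. Alpha J segments went from 3.13 ± 1.56 to 249 ± 16.9 summed CPM, with 31 of 31 called higher. Trac, the alpha constant gene, stood at 23.7, 16.6, 5.47, 24.1 and 33.1 CPM in DN3 and at 993, 778, 798, 721 and 692 CPM in DP (log2 5.26, SE 0.38, edgeR adjusted p = 1.51e-07). Every DP library was thus above every DN3 library in each part of the alpha locus. The beta locus, already rearranging in DN3, moved by less: V segments went from 934 ± 283 to 3297 ± 186 summed CPM with 19 of 22 called higher. The beta constant genes went from 1319.7 ± 139 to 4856 ± 541 summed CPM. The DN3 library RP1135 had the lowest sums of alpha J (0.471 CPM) and beta V segments (448 CPM). Gamma segments and constant genes went from 3392 ± 405 to 33.8 ± 31.5 summed CPM, with 12 of 12 called lower. In the DP libraries the gamma sum lay anywhere from 3.77 to 83.6 CPM, below all DN3 libraries (3022 to 3945 CPM). Of the delta segments 2 of 5 were called higher and 1 lower, and the delta sums overlapped (81.2 to 154 and 82.1 to 110.2 CPM). V segments of a locus resemble one another, so single segments are less certain than the sums.

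**Figure D2:**
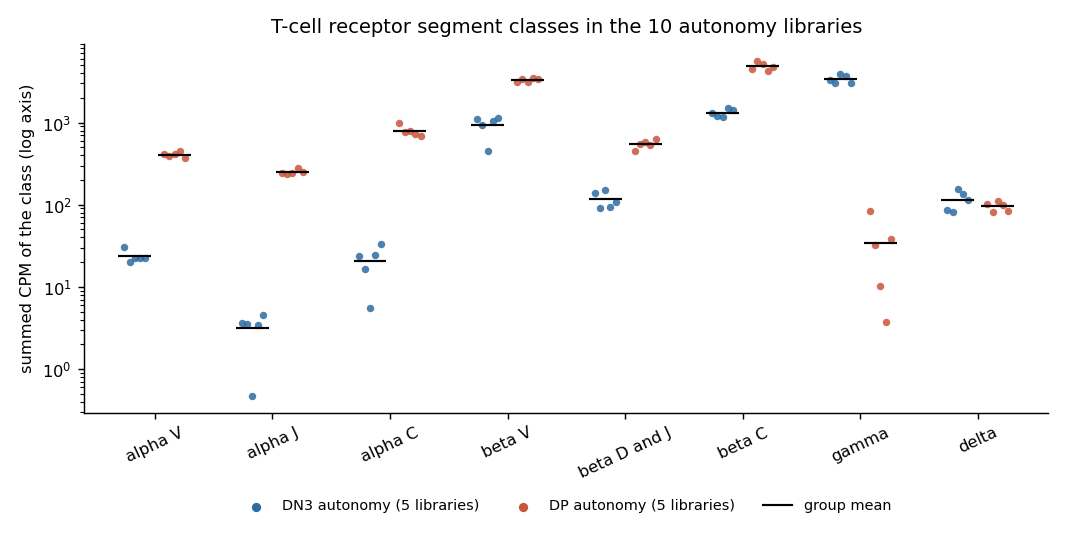
Summed CPM on a log axis for 8 classes of T-cell receptor segments, with 1 point per autonomy library and a bar at the group mean. The alpha and beta classes are higher in all 5 DP libraries, the gamma class is lower in all 5 (3.77 to 83.6 CPM against 3022 to 3945 CPM), and the delta sums overlap.

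The recombinase rose with the alpha locus. Rag1, which cuts at receptor segments, stood at 95.1, 150.2, 129, 65.8 and 45.5 CPM in DN3 and at 669, 916, 685, 919 and 721 CPM in DP (log2 3.01, SE 0.29, edgeR adjusted p = 1.69e-06). Its partner Rag2 rose from 406 ± 141 to 1618 ± 126 CPM (log2 1.99, SE 0.20). Dntt, the polymerase that adds untemplated bases at the joins, changed by less, from 1841 ± 398 to 2692 ± 165 CPM (log2 0.55, SE 0.14). Among the recombinase and end-joining genes 7 of 17 rose and 3 fell. Dclre1c, the Artemis nuclease that opens hairpin ends, rose (log2 2.53, SE 0.25), as did the end-joining factor Paxx (log2 1.84, SE 0.16). Xrcc5, the Ku80 subunit that binds DNA ends, fell from 174 ± 21.9 to 40.7 ± 8.34 CPM (log2 −2.10, SE 0.18).

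Signalling parts of the receptor rose while the pre-receptor chain fell. Of 24 genes for the pre-receptor, CD3 chains and proximal signalling 17 rose and 1, Ptcra, fell (median log2 1.26). Lck, the kinase that starts the signal, stood at 1975, 2033, 1916, 1903 and 1816 CPM in DN3 and at 4962, 5005, 4328, 4675 and 4466 CPM in DP (log2 1.28, SE 0.09, edgeR adjusted p = 8.93e-08). The levels were even within each stage and the stages lay apart. The adaptor Lat rose from 1043 ± 64.6 to 2811 ± 214 CPM (log2 1.43, SE 0.10). Cd3e, an invariant chain of the receptor, was not called, at 232, 67.02, 221, 189 and 86.02 CPM in DN3 and 276, 217, 251, 248 and 217 CPM in DP (log2 0.61, SE 0.30, edgeR adjusted p = 0.103). The stages overlapped for it, and it was called with scaling by library totals and in limma voom.

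Genes that respond to receptor signals were mostly higher in DP. Of 19 tested on a list for positive selection 13 rose and 2, Il7r and Bcl2, fell. The list holds 26 genes, of which the signal-response genes Egr2 and Egr3 had 0 reads in all 10 libraries. Cd69, an early activation antigen, rose from 5.69 ± 1.39 to 91.2 ± 24.1 CPM (log2 3.99, SE 0.26). Cd5, which damps receptor signals, stood at 36.2, 27.97, 9.52, 32.7 and 28.1 CPM in DN3 and at 249, 134, 204, 259 and 257 CPM in DP (log2 3.03, SE 0.32, edgeR adjusted p = 3.68e-06). Of 6 tested markers of mature single-positive cells 2 rose, Ccr7 among them, and 1, Il7r, fell. Ccr7, the receptor that guides such cells to the medulla, was low in both stages (6.65 ± 2.92 and 22.2 ± 11.7 CPM), and Zbtb7b, the CD4-lineage factor, had 0 reads in all 10 libraries.

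Most Notch receptors and targets fell. Of 17 tested genes 11 fell and 4 rose (median log2 −1.62). Notch1, the receptor that DN3 cells need, stood at 2013, 844, 1725, 1288 and 852 CPM in DN3 and at 85.7, 242, 149, 216 and 181 CPM in DP (log2 −2.94, SE 0.31, edgeR adjusted p = 4.1e-06). Hes1, a repressor that Notch switches on, went from 70.2, 47.1, 146, 77.3 and 79.4 CPM to 0.187, 3.69, 0, 0 and 1.49 CPM (log2 −6.34, SE 0.89, edgeR adjusted p = 5.1e-05). Both ranges lay apart, and Hes1 was at or near 0 in DP. Dtx1, another target, fell by less, from 107 ± 47.8 to 39.998 ± 15.1 CPM (log2 −1.42, SE 0.33). The 4 that rose were Rbpj, the DNA-binding partner of Notch (17.7 ± 5.897 to 46.6 ± 12.6 CPM), the glycosyltransferase Rfng, the coactivator Maml1 and Tcf7, a factor that Notch also induces.

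Il7r fell and Il4ra rose, while the cytokine list as a whole gave counts near the background. Il7r, the interleukin 7 receptor chain, stood at 134, 98.6, 217, 114 and 95.7 CPM in DN3 and at 1.31, 1.899, 5.45, 2.03 and 0 CPM in DP (log2 −5.87, SE 0.57, edgeR adjusted p = 2.13e-06). Il4ra, the interleukin 4 receptor chain, was at 0.164, 0, 1.32, 0 and 0 CPM in DN3 and at 113, 89.3, 118, 160.3 and 108 CPM in DP (log2 8.64, SE 0.70, edgeR adjusted p = 4.365e-07). Neither gene had overlapping stages. Jak1, a kinase that both receptors use, rose from 218 ± 59.3 to 788 ± 78.1 CPM (log2 1.85, SE 0.17). Socs2, a feedback inhibitor of cytokine signals, fell from 18.3 ± 7.64 to 0.169 ± 0.377 CPM, while its relative Socs1 rose from 112 ± 31.9 to 388 ± 47.4 CPM (log2 1.79, SE 0.19). Of 18 genes tested on this list 6 rose and 4 fell.

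Among 11 tested Bcl2 family genes 6 rose and 3 fell. Bcl2l1 stood at 23.9, 46.8, 21.1, 17.8 and 32.4 CPM in DN3 and at 233, 216, 236, 245 and 211 CPM in DP (log2 3.01, SE 0.24, edgeR adjusted p = 4.01e-07). Bcl2, a survival factor downstream of interleukin 7, fell from 44.1 ± 5.88 to 22.5 ± 9.52 CPM (log2 −0.97, SE 0.32, edgeR adjusted p = 0.0213). The death genes Bid (log2 −1.64, SE 0.21) and Bax (log2 −0.64, SE 0.18) fell, and the death gene Bmf rose from 1.04 ± 0.706 to 8.47 ± 2.96 CPM.

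Of 33 tested T-lineage transcription factors and E proteins 17 rose and 4 fell. Satb1, a chromatin organiser, stood at 231, 313, 218, 239 and 324 CPM in DN3 and at 2317, 1486, 1830.4, 1942 and 1864 CPM in DP (log2 2.83, SE 0.16, edgeR adjusted p = 2.86e-08). Tcf7, the TCF-1 factor, rose from 576 ± 86.98 to 1305 ± 114 CPM (log2 1.18, SE 0.12). Bcl11b, a factor of T-lineage commitment, rose from 158 ± 21.5 to 352 ± 35.03 CPM (log2 1.16, SE 0.13), and Id3, an inhibitor of E proteins, from 97.6 ± 25.9 to 199 ± 11.5 CPM (log2 1.03, SE 0.18). These rises were smaller than that of Satb1. Lef1, the relative of TCF-1, differed little (354 ± 40.6 and 281 ± 16.6 CPM; log2 −0.33, SE 0.12, edgeR adjusted p = 0.0305). Its call was lost with scaling by library totals and without the DN3 library RP1133 or RP1137 or the DP library RP1136. Gata3, a factor of T-cell commitment, was not called (205 ± 81.2 and 238 ± 23.5 CPM; log2 0.21, SE 0.23, edgeR adjusted p = 0.458). Erg, a factor of early progenitors, was at 3.89 to 19.3 CPM in DN3 and at 0 to 0.211 CPM in DP. Sox13, a factor of gamma-delta T cells, was at 7.14 to 9.53 CPM in DN3 with no reads in any DP library, at least 22.8-fold lower against a floor of 3 counts per library, which covers counting error only.

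Lists for earlier and other lineages gave mixed counts. Of 5 tested early progenitor genes 0 rose and 3 fell, Kit, Cpa3 and Mycn. Kit, the stem cell factor receptor, stood at 22.7, 7.58, 13.2, 2.78 and 6.08 CPM in DN3 and had no reads in DP, at least 29.5-fold lower. Cpa3, which encodes a mast cell carboxypeptidase also made by early progenitors, went from 21.8, 10.9, 25.8, 2.89 and 2.72 CPM to 0.5601, 0, 0, 0 and 0 CPM. Both genes varied several-fold among the DN3 libraries. Of 8 tested genes on a gamma-delta lineage list 3 rose, Cd44 and Id3 among them, and 4 fell, Blk, Cd163l1, Etv5 and Sox13. The list summed to 135 to 239 CPM in DN3 and 808 to 925 CPM in DP. Cd163l1, a scavenger receptor of gamma-delta T cells, fell from 24.2 ± 12.97 to 0.149 ± 0.334 CPM. Of 4 tested NK cell markers 1 rose, Tyrobp, 1 fell, Gzma, and 2 were not called. Scaled over all 18 libraries, Tyrobp was at 0 to 1.33 CPM in DN3 and at 5.11, 56.3, 1.35, 1.92 and 3.93 CPM in DP. Its rise thus came largely from the DP library RP1135. Gzma, a granzyme, was at 1796, 2469, 1795, 1970.1 and 1729.8 CPM in DN3 and at 134, 198, 119.8, 94.5 and 88.7 CPM in DP (log2 −3.94, SE 0.22, edgeR adjusted p = 3.03e-08). The NK receptors Klrb1c and Klrd1 had 0 reads in all 10 libraries.

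Of 17 homing and egress receptors 12 rose and 0 fell, with 1 falling without the DP library RP1135. Ccr9, the receptor for the thymic chemokine CCL25, stood at 12.3, 23.9, 4.62, 3.004 and 7.46 CPM in DN3 and at 2109, 1675, 2196, 2575 and 2561 CPM in DP (log2 7.79, SE 0.51, edgeR adjusted p = 7.38e-08). Plxnd1, a semaphorin receptor, rose from 3.79 ± 2.6997 to 110.3 ± 17.7 CPM (log2 4.82, SE 0.51) and the integrin chain Itgb2 from 75.7 ± 15.9 to 334 ± 54.5 CPM (log2 2.14, SE 0.18).

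**Figure D3:**
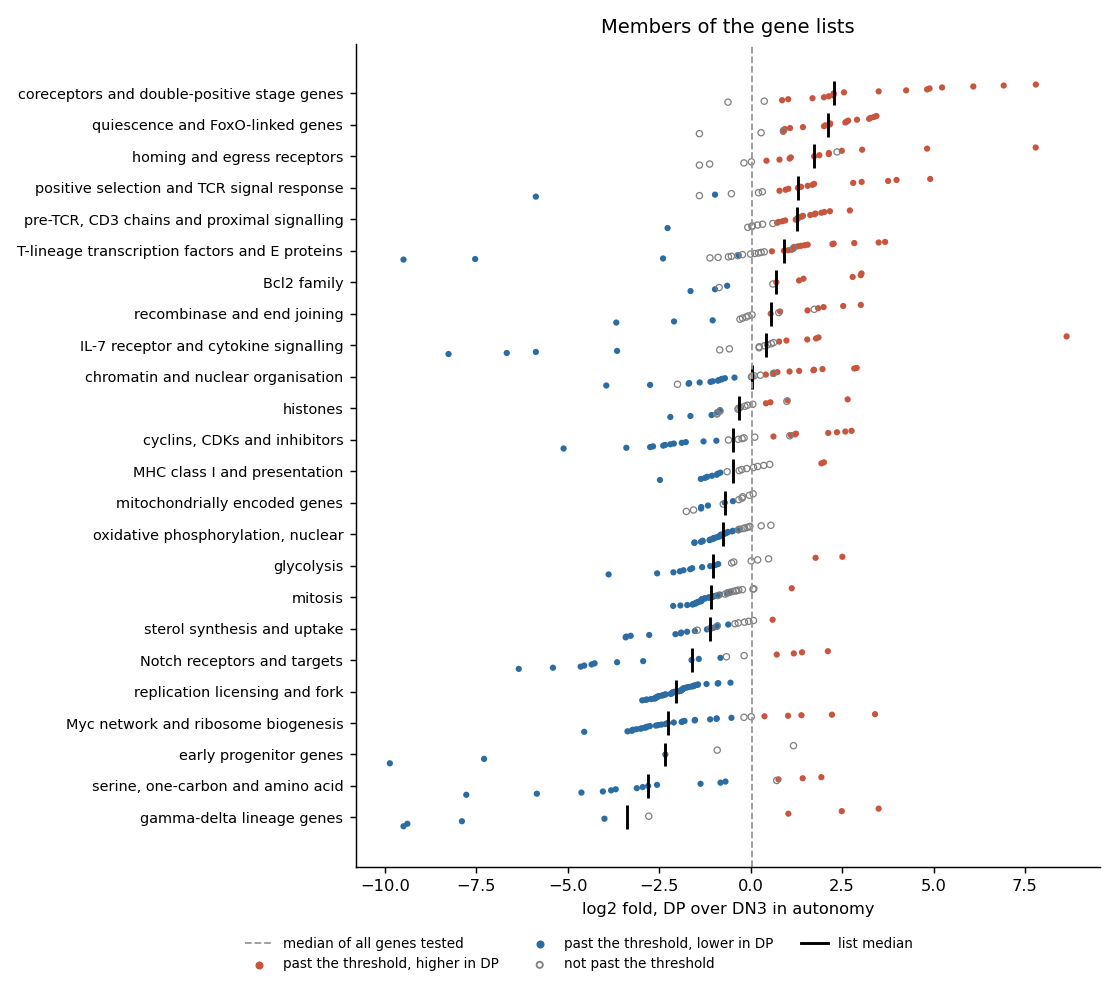
Fitted log2 fold, DP over DN3 in autonomy, of each tested member of 24 gene lists, with called members filled, others open, a bar at the list median and a dashed line at 0.04, the median of all genes tested. All 42 replication genes lie to the left and 17 of 19 coreceptor and DP-stage genes are called to the right. Positions of genes with no reads in one stage (such as Kit, Sox13, Blk and Cish) are fitted values, not bounds.

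Genes of DNA replication fell without exception. All 42 genes of replication licensing and the fork were called lower in DP (median log2 −2.03). Mcm6, a subunit of the replicative helicase (ENSMUSG00000026355, GRCm38 chromosome 1, 128331590 to 128359664), stood at 1971, 1554, 1781, 2082 and 2286 CPM in DN3 and at 230.4, 220.1, 269, 196 and 324 CPM in DP (log2 −2.97, SE 0.16, edgeR adjusted p = 2.13e-08). Its partner Mcm2 fell from 751 ± 146 to 114 ± 23.4 CPM (log2 −2.72, SE 0.19), and Tk1, thymidine kinase, from 219 ± 26.2 to 36.1 ± 8.07 CPM (log2 −2.60, SE 0.18). Mitosis genes moved less evenly: of 40 tested 28 fell, 1 rose and 11 were not called (median log2 −1.09). Plk1, the kinase that drives entry into mitosis (ENSMUSG00000030867, GRCm38 chromosome 7, 122159439 to 122169873), stood at 328, 196, 192, 309 and 298 CPM in DN3 and at 61.6, 38.7, 75.3, 42.05 and 87.7 CPM in DP (log2 −2.12, SE 0.25, edgeR adjusted p = 1.25e-05). Bub1b, of the spindle checkpoint, fell from 213 ± 34.4 to 70.8 ± 17.2 CPM (log2 −1.59, SE 0.19). Smc4, a condensin subunit, was the 1 that rose, from 1473 ± 387 to 3208 ± 553 CPM (log2 1.12, SE 0.17). Mki67, the Ki-67 antigen of cycling cells, was at 423, 896, 427, 445 and 522 CPM in DN3 and 170.3, 379, 286, 207 and 459 CPM in DP (log2 −0.85, SE 0.28, edgeR adjusted p = 0.0204), with one DP library inside the DN3 range. That call was lost with scaling by library totals (adjusted p = 0.0505) and without the DP library RP1137 (adjusted p = 0.0512).

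Promoters of 3 gene lists were read to show their sequence context, whether or not a member was called. RefSeq promoters of GRCm38.p6, from 250 bases before to 50 after each start, matched 34 of 42 replication genes, 33 of 40 mitosis genes and 30 of 36 genes of the Myc network and ribosome biogenesis. Motifs were searched on both strands, and matches of one motif may overlap. An E2F motif (TTCCCGC or TTGGCGC or TTCGCGC or TTGCCGC) was in 63.4% of the 41 replication promoters, against 9.57% of all 32851 promoters in the table and 17.6% of promoters of the genes tested here. The CHR motif of mitotic genes (TTTGAA or TTTAAA) was in 85.7% of the 35 mitosis promoters, against 27.6% of all and 19.3% of those of genes tested. The CCAAT box was in 82.9%, against 37.4% and 38.7%. The CACGTG box that Myc can bind was in 22.9% of the 35 promoters of the Myc list, against 7.15% of all and 10.4% of those of genes tested. A match is a run of letters, not a bound site. The 130 bases before the start are shown for a few called falls of each list, taken in order of adjusted p. A gene was taken only if these bases held the motif of its list, for mitosis both CHR and CCAAT. A match in each was thus fixed by the choice and does not show how common matches are. Of the Myc list only Nop2 was so taken. Bases run 5′ to 3′ along the gene, with matches in capitals. These are E2F for Mcm6 and Rrm1, CHR and CCAAT for Plk1 and Ccnb1, and CACGTG for Nop2.
Mcm6 (chr1:128359706-128359835, minus strand): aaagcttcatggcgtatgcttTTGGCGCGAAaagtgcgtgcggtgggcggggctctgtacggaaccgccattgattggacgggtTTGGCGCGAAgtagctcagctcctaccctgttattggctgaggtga
Rrm1 (chr7:102441565-102441694, plus strand): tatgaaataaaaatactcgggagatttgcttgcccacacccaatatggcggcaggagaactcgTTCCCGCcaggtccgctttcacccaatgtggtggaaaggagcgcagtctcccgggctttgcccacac
Plk1 (chr7:122159305-122159434, plus strand): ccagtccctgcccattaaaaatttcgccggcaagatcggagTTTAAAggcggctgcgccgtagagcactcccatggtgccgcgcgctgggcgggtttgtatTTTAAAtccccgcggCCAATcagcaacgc
Ccnb1 (chr13:100786487-100786616, minus strand): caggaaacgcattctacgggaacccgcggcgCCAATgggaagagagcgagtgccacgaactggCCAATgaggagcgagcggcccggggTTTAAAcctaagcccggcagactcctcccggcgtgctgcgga
Nop2 (chr6:125131753-125131882, plus strand): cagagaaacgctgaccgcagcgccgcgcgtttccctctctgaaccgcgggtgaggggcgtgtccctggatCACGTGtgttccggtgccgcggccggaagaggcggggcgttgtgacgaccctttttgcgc

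Of 26 tested cyclins, kinases, their inhibitors and E2F partners 8 rose and 12 fell. Cdk4, the kinase of G1 cyclins, fell from 1079 ± 114 to 213 ± 23.96 CPM (log2 −2.34, SE 0.12), and its relative Cdk6 from 125 ± 39.8 to 18.5 ± 5.198 CPM (log2 −2.75, SE 0.28). Ccnd2, a G1 cyclin, stood at 105, 88.1, 373, 117 and 181 CPM in DN3 and at 29.3, 15.8, 0, 33.2 and 3.14 CPM in DP (log2 −3.40, SE 0.83, edgeR adjusted p = 0.00363). Ccnd3, the G1 cyclin of beta selection, rose instead, from 649 ± 138 to 999 ± 121 CPM (log2 0.62, SE 0.16, edgeR adjusted p = 0.00436). The cycle inhibitors Cdkn1b, which encodes p27 (21.6 ± 6.82 to 129.6 ± 25.7 CPM), and Cdkn2d, which encodes p19 (59.5 ± 19.2 to 305 ± 26.2 CPM), rose, as did Rbl2, a retinoblastoma-family repressor (log2 2.76, SE 0.33). Of 20 tested quiescence and FoxO-linked genes 17 rose and 0 fell (median log2 2.10). Btg2, an antiproliferative gene, stood at 45.04, 42.98, 57.6, 39.7 and 38.7 CPM in DN3 and at 333, 535, 393, 508 and 346 CPM in DP (log2 3.24, SE 0.19, edgeR adjusted p = 3.13e-08). The cyclin G2 gene Ccng2 (log2 3.28, SE 0.26) and the stress sensor Sesn1 (log2 2.17, SE 0.15) rose with it.

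Growth genes fell along with replication. Myc, a transcription factor that drives growth (ENSMUSG00000022346, GRCm38 chromosome 15, 61985391 to 61990374), stood at 515, 336, 496, 472 and 571 CPM in DN3 and at 18.7, 17.1, 18.9, 16.6 and 31.1 CPM in DP (log2 −4.55, SE 0.22, edgeR adjusted p = 9.19e-09). Of 35 tested genes of the Myc network and ribosome biogenesis 28 fell and 5 rose (median log2 −2.26). The nucleolar proteins Npm1 (3196 ± 382 to 438 ± 53.4 CPM, log2 −2.87, SE 0.13) and Ncl (2981 ± 472 to 621 ± 73.3 CPM, log2 −2.26, SE 0.13) were among those that fell. Those that rose were Mxd4 (11.3 ± 8.07 to 120.2 ± 9.84 CPM, log2 3.40, SE 0.41), Mxd1, Mxi1 and Mga, which share the partner Max with Myc, and Wdr12, a ribosome biogenesis factor. The count of rises was 3 without the DN3 library RP1133, RP1134 or RP1135 or the DP library RP1133. Ribosomal protein genes took 6.13 ± 0.464% of the counts in DN3 and 2.61 ± 0.317% in DP.

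Of 18 tested glycolysis genes 11 fell and 2 rose. Ldha, a lactate dehydrogenase subunit, stood at 3035, 2527, 1904, 3117 and 3081 CPM in DN3 and at 767, 582, 626, 681 and 916 CPM in DP (log2 −1.94, SE 0.16, edgeR adjusted p = 6.16e-07). Its sister subunit Ldhb went the other way, from 311 ± 81.5 to 1772 ± 209.9 CPM (log2 2.51, SE 0.18). Tpi1, triose phosphate isomerase, fell from 392 ± 56.1 to 26.8 ± 7.96 CPM (log2 −3.88, SE 0.21). Nuclear genes of oxidative phosphorylation fell by less: 24 of 33 fell and 0 rose (median log2 −0.75), with 2 rising without the DP library RP1138 or with scaling by library totals. Atp5b, an ATP synthase subunit, fell from 3374 ± 712 to 1355 ± 129 CPM (log2 −1.32, SE 0.14). Of 23 sterol genes 14 fell and 1, the regulator Srebf1, rose (log2 0.60, SE 0.21, edgeR adjusted p = 0.0276); its call was lost without the DN3 library RP1137 or RP1138 or the DP library RP1136 or RP1138. Sqle, squalene epoxidase, fell from 130.1 ± 13.7 to 19.02 ± 9.25 CPM (log2 −2.77, SE 0.32). Of 17 tested entries for serine, one-carbon and amino acid supply 13 fell and 3 rose (median log2 −2.80). Phgdh, the first enzyme of serine synthesis, stood at 849, 999.6, 732, 936 and 963 CPM in DN3 and at 106, 80.5, 131, 137 and 124 CPM in DP (log2 −2.95, SE 0.16, edgeR adjusted p = 2.6e-08).

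Chromatin genes split, with 11 of 30 higher and 13 lower. Kdm5b, a histone demethylase, rose from 30.2 ± 12.5 to 226 ± 25.04 CPM (log2 2.90, SE 0.28). Dnmt1, the maintenance DNA methyltransferase, fell from 364 ± 49.1 to 112 ± 19.1 CPM (log2 −1.70, SE 0.15), and the architectural protein Hmga1 from 92.7 ± 16.6 to 13.8 ± 3.202 CPM (log2 −2.75, SE 0.22). The histone variant H2afz fell from 2083 ± 307 to 665 ± 128 CPM (log2 −1.65, SE 0.15). Of 18 genes of class I presentation 2 rose and 8 fell. Psmb8, an immunoproteasome subunit, fell from 1747 ± 179 to 982 ± 152 CPM (log2 −0.83, SE 0.13). H2-T23, a nonclassical class I gene, rose (log2 1.93, SE 0.30), although reads may be shared with near-identical H2 genes.

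Other genes with large changes had varied functions. Pcsk1, a prohormone convertase, had no reads in DN3 and stood at 39.2, 8.12, 25.6, 28.99 and 37.2 CPM in DP, at least 96.1-fold higher. Tle2, a Groucho-family corepressor, went from 0.0445 ± 0.0995 to 31.97 ± 11.7 CPM, and Jup, the junction protein plakoglobin, from 1.02 ± 1.07 to 146 ± 66.8 CPM (log2 6.94, SE 0.65). In the other direction Necab1, a calcium-binding protein, was at 29.5, 61.3, 40.9, 19.02 and 16.2 CPM in DN3 with no reads in DP, at least 94.1-fold lower. Acot5, an acyl-CoA thioesterase, was at 39.1, 24.8, 34.2, 27.3 and 21.3 CPM with no reads in DP, at least 82.6-fold lower. Mpzl2, an adhesion molecule, fell from 32.9 ± 7.95 to 0.0283 ± 0.0632 CPM.

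Most of the genes called in the same step of turnover were called in autonomy too. Of 10868 genes tested in turnover 3645 were called (33.5%), 1720 higher in DP (15.8%) and 1925 lower (17.7%), with 4 libraries a group in place of 5. Among 10141 genes tested in both, 2885 were called in both, which is 54.2% of the autonomy calls and 82.4% of the turnover calls, and 2842 of them moved the same way. The steps share no library. A call in one condition alone does not show a difference: of 2438 genes called in autonomy alone, 287 passed the test of the difference itself. That test, the interaction term in a fit of all 18 libraries, called 633 of 11521 genes (5.49%), 332 with a higher step in autonomy (2.88%) and 301 with a lower one (2.61%). The count was 145 when the turnover libraries labelled A and B of one number were summed, and 1037 in DESeq2. With single libraries left out it ran from 424 to 684. It was 424 without the DN3 turnover library RP1141B and 439 without the DN3 turnover library RP1140A. Levels below that are set beside turnover are scaled over all 18 libraries and so differ slightly from those above. The turnover libraries are in the order RP1140A, RP1140B, RP1141A and RP1141B.

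The DN3 turnover library RP1141B stood apart in DP genes. Cd4 was at 1.19, 1.96, 0.422 and 135 CPM in the DN3 turnover libraries, and Cd8a at 6.88, 7.35, 2.53 and 385 CPM. The DN3 autonomy libraries lay between, at 38.97 to 71.7 CPM for Cd8a. With all libraries the Cd8a difference of the step was log2 0.72, SE 1.19, edgeR adjusted p = 0.806. Without RP1141B it was log2 −3.47 (edgeR adjusted p = 1.385e-05), with the step smaller in autonomy.

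The step of the mitosis genes differed between the conditions. In turnover 19 of 40 rose from DN3 to DP and 0 fell (11 rose with the A and B libraries summed), and the difference was called lower in autonomy for 33 of 40 and higher for 0 (median log2 −1.74, against 0.06 over all genes tested). The count of 33 ran from 30 to 35 as single libraries were left out, and was 15 with A and B libraries summed. Anln, which builds the cleavage furrow (ENSMUSG00000036777, GRCm38 chromosome 9, 22332012 to 22389188), stood at 77.5, 52.5, 64.2 and 42.4 CPM in DN3 turnover and at 178, 133, 102 and 114 CPM in DP turnover. In autonomy, on the same scale, it was at 119, 187, 121, 120.1 and 124 CPM in DN3 and at 30.7, 43.1, 55.4, 44.6 and 53.1 CPM in DP. The stages thus lay apart in both conditions and in opposite order (log2 −2.72, SE 0.32, edgeR adjusted p = 0.000125, for the difference). Mki67 went from 313 ± 65.2 to 745 ± 171 CPM in turnover and from 568 ± 197 to 304 ± 120.1 CPM in autonomy (difference log2 −2.15, SE 0.38, edgeR adjusted p = 0.0023). Plk1 was at 148 ± 36.9 and 164 ± 51.99 CPM in turnover and fell in autonomy (difference log2 −2.33, SE 0.38, edgeR adjusted p = 0.00119). The mean was higher in DN3 autonomy than in DN3 turnover for 39 of 40 mitosis genes, and lower in DP autonomy than in DP turnover for 39 of 40. The like shares over all genes tested were not counted, so these counts have no background to be read against. Of 43 genes called in opposite directions in the conditions, 32 fell in autonomy and rose in turnover, and 10 of these 32 are on the mitosis list.

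Most replication genes fell in both conditions. In turnover 30 of 42 fell and 0 rose (median log2 −1.04), and the difference was called lower in autonomy for 22 and higher for 0. That count was 7 with A and B libraries summed. Mcm6 went from 1387 ± 121 to 437 ± 79.4 CPM in turnover (difference log2 −1.36, SE 0.22, edgeR adjusted p = 0.00121). Ccne1, the cyclin of S-phase entry, was at 58.3 ± 14.4 and 64.6 ± 15.8 CPM in turnover and went from 158 ± 50.4 to 23.96 ± 12.1 CPM in autonomy (difference log2 −2.87, SE 0.44, edgeR adjusted p = 0.00075). Ccnd3 rose in both, by more in turnover, from 334 ± 68.2 to 1139 ± 73.7 CPM (difference log2 −1.20, SE 0.23, edgeR adjusted p = 0.00432). Of the Myc network and ribosome biogenesis genes 27 of 36 fell in turnover, and a difference was called for Mxd4, higher in autonomy, and for Npm1 and Utp20, lower. The differences of Ccnd3 and Mxd4 were not called with A and B libraries summed.

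**Figure D4:**
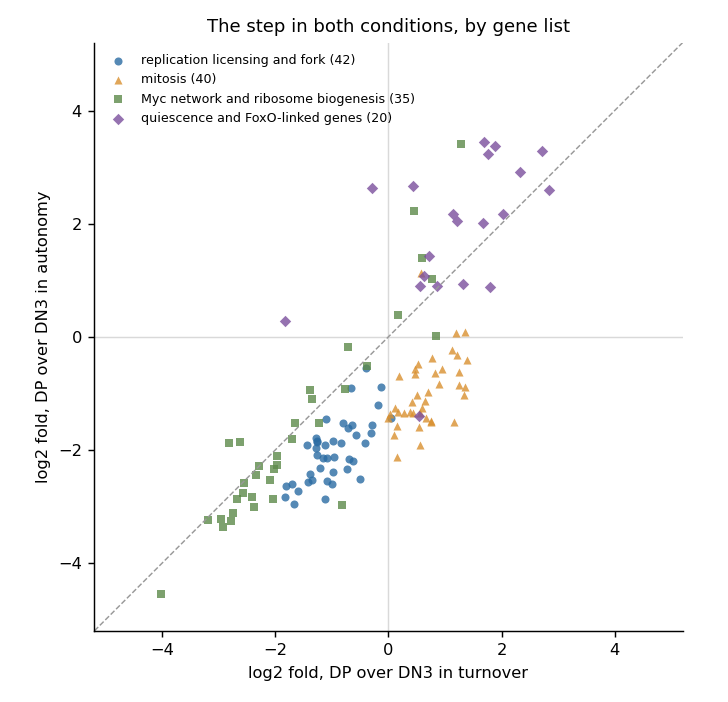
Fitted log2 fold, DP over DN3, in turnover (x axis) and in autonomy (y axis) for the genes of 4 lists tested in both, 1 point per gene, with a dashed line where both are equal. Nearly all mitosis genes lie to the right of 0 in turnover and below 0 in autonomy, and most replication genes lie below the line (medians −1.04 in turnover and −2.03 in autonomy).

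Single genes with a called difference differed between the conditions at DN3, at DP or at both. Ccr9 went from 280.3 ± 115 to 2253 ± 222 CPM in turnover and from 10.7 ± 8.55 to 2253 ± 384 CPM in autonomy, so that the DP levels were alike and the DN3 levels apart (difference log2 4.74, SE 0.56, edgeR adjusted p = 0.000125). Cd1d1 was at 81.6 ± 24.6 CPM in DN3 turnover and 35.7 ± 2.97 CPM in DN3 autonomy, and at 77.99 to 113 CPM in DP turnover and 115 to 157 CPM in DP autonomy, so that it was lower in autonomy at DN3 and higher at DP (difference log2 1.65, SE 0.26, edgeR adjusted p = 0.000845). Kdm5b was likewise higher in DN3 turnover, at 146 ± 30.6 CPM against 31.9 ± 13.5 CPM in DN3 autonomy (difference log2 2.31, SE 0.36, edgeR adjusted p = 0.0007785). Arsi, an arylsulfatase, went from 8.54, 4.83, 2.74 and 6.396 CPM to 36.4, 48.8, 40.2 and 56.5 CPM in turnover. In autonomy it went from 97.7, 123, 119, 64.2 and 65.1 CPM to 46.2, 53.8, 29.9, 35.9 and 56.7 CPM (difference log2 −4.09, SE 0.43, edgeR adjusted p = 7.03e-05). The DP levels of the conditions overlapped, and the DN3 levels lay far apart. Il7r had no reads in any DP turnover library and 0 to 5.51 CPM in DP autonomy.

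**Figure D5:**
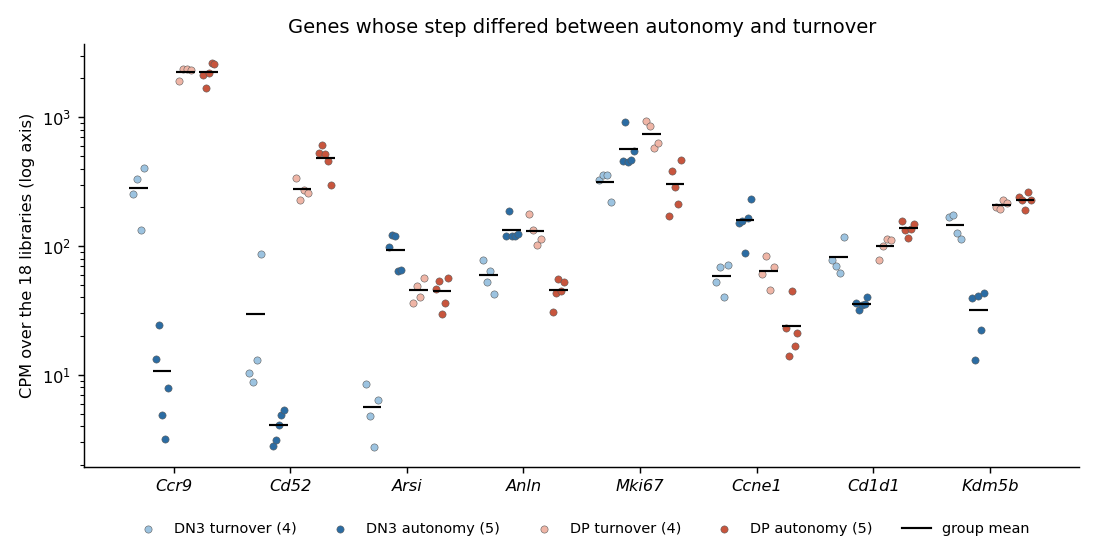
CPM over the 18 libraries on a log axis for 8 genes with a called difference of the step, with 1 point per library in 4 groups and a bar at the group mean. Ccr9, Cd1d1 and Kdm5b are lower in all 5 DN3 autonomy libraries than in any DN3 turnover library, and the means of Anln and Mki67 order the stages one way in turnover and the other way in autonomy.

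On the signalling list the difference was called higher in autonomy for 9 of 24 genes and lower for 0. Lat went from 1466 ± 482 to 1723 ± 60.1 CPM in turnover (difference log2 1.14, SE 0.22, edgeR adjusted p = 0.00453). The count was 5 without RP1141B or without the DP turnover library RP1140B, and 2 with A and B libraries summed. For quiescence genes the difference was called higher for 4 of 20 and lower for 0, and for 1 with A and B libraries summed.

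Markers of macrophages and dendritic cells were higher in DP, and other marker lists gave mixed counts or none. All 4 tested macrophage markers of 10 listed were higher in DP, and the list summed to 5.34 to 16.5 CPM in DN3 and to 135, 113, 43.1, 71.3 and 20.5 CPM in DP. C1qb, a complement chain of macrophages, was at 0 to 0.556 CPM in DN3 and at 34.7, 22.6, 5.55, 12.5 and 2.24 CPM in DP, and Cd14 had 0 reads in all 10 libraries. Of 3 tested dendritic cell markers 2 were higher, and the list of 10 summed to 2.48 to 10.2 CPM in DN3 and to 92.04, 228, 22.2, 24.1 and 7.02 CPM in DP, with Xcr1 at 0. Without the DP library RP1138, whose sum was lowest, 4 dendritic cell markers were called higher. Both sums were highest in the DP libraries RP1133 and RP1135. The erythroid list summed to 1.68 to 6.12 CPM in DN3 and 1.06 to 4.63 CPM in DP, with no member called. The B cell list, of which 1 of 2 tested markers rose, summed to 639.9 to 1295 and 1220.5 to 1695 CPM, mostly from Ighm (1008 ± 256 and 1465 ± 223 CPM), with Pax5 and Ms4a1 at 0. The thymic epithelium list, with 1 higher and 2 lower, summed to 85.2 to 167 and 47.2 to 109.7 CPM, mostly from Ly75, Epcam and Cldn4, with Krt5 at 0. The list for fibroblasts and endothelium, with 1 higher and 1 lower, summed to 43.2 to 65.4 and 109 to 181 CPM, mostly from Pecam1, with Pdgfra, Col1a2 and Cdh5 at 0. Without the DP library RP1133 5271 genes were called and without RP1135 5435, and all 42 replication genes fell in each case. The part of these markers in the other results was not tested.

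Mitochondrial transcripts took 3.998 ± 0.639% of the DN3 counts and 3.38 ± 0.277% of the DP counts (exact two-sided permutation test, p = 0.0476). Leaving out the DN3 library RP1133 moved the difference from −0.61 to −0.36 percentage points (exact permutation p = 0.0952), and 6 of the other 9 omissions also took p above 0.05. At a common depth of 5032273 reads 11771 ± 390.3 genes were detected in DN3 and 11208 ± 229 in DP (exact two-sided permutation test, p = 0.0238). With at least 5 reads required the difference turned, to 74 more in DP (exact permutation p = 0.468). The 50 most abundant genes took 15.3 ± 0.815% of the counts in DN3 and 13.8 ± 0.283% in DP (p = 0.00794, the smallest that an exact permutation test of 5 against 5 libraries can give). For the top 20 genes the difference was −0.77 points, no longer past 0.05. The part of these library measures in the results was not tested.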

How the data were processed

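RNA was measured in 18 libraries, 5 DN3 autonomy, 5 DP autonomy, 4 DN3 turnover and 4 DP turnover. Per the labels' protocols, cells were sorted into lysis buffer, RNA was taken on oligo-dT beads and libraries followed a Pico Nextera protocol. The deposited table holds raw counts per gene for all libraries, and the submitters' processing notes name FastQC, HISAT2, featureCounts and DESeq2 with mm10 and GRCm38; for versions, roles and the strand setting nothing is stated, so reads of overlapping antisense genes cannot be separated. Of 22619 gene IDs 22524 had a symbol in the GENCODE annotation.

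From these counts edgeR 4.0.16 (R 4.3.3) gave TMM factors, filterByExpr the genes tested, and the quasi-likelihood test with Benjamini-Hochberg adjustment the calls: DP over DN3 in autonomy over its 10 libraries, the same in turnover over its 8, and the interaction over all 18. Single values per library were tested by exact permutation. Depth ran from 5032273 to 21808512 counts in the autonomy libraries. DESeq2 1.42.0, limma 3.58.1 (voom), other scalings and filters, sums of A and B libraries and leaving out each library were the alternatives. The fit was tested on simulated data.

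Named genes were the 15 largest rises and falls (non-overlapping libraries, higher group's mean 20 CPM or more), up to 3 per direction of each list, a fixed set of stage genes and the 8 largest differences per direction; not every gene so picked is described, and a few are not reported here. Other genes are named to account for small counts, or for markers at 0, and were chosen after their values were seen, as were Rrm1, Ccnb1 and Nop2. The gene lists were chosen with earlier results of these data known.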

Additional observations from a re-analysis of the deposited data

Results flagged for a closer look

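Single libraries far from the others of their group were sought in 248 sets of libraries: the levels of 94 genes with values above, segment sums, marker sums and library measures. In 25 sets a library's gap to its nearest neighbour took more of the group's range than Dixon's critical value for the group's size. Chance gives about 1 in 20 for normally distributed values. CPM were not shown to be so, and sets with reads in 1 library give a gap of 1.0, so 25 cannot be read against that rate. Among the DN3 autonomy libraries RP1134 was highest for Mki67 (gap 0.792 of the range), Anln (0.906), Rbpj (0.776) and Rbl2 (0.785). RP1135 was highest there for Il4ra (0.875) and the thymic epithelium sum (0.735), and lowest for the alpha J sum (0.722). Other DN3 autonomy libraries stood out for Cd69 (RP1138, 0.72), Tle2 (RP1137, 1.0) and the alpha V sum (RP1133, 0.746). Among the DP autonomy libraries RP1138 was highest for Myc (0.842) and the thymic epithelium sum (0.895), the latter with Cldn4, an epithelial claudin, at 24.1, 16.4, 14.1, 12.1 and 66.5 CPM in the 5 libraries. RP1135 was highest for Rbpj (0.745), and RP1137 for Tcf7 (0.755). For Socs2, Erg, Cpa3, Cd163l1 and Mpzl2 only 1 DP library had reads (gap 1.0).

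In turnover the DN3 library RP1141B was highest for Cd4 (0.989), Cd8a (0.987) and Ccnd3 (0.928). Among the DP turnover libraries RP1140A was lowest for Cd4 (0.915) and Ccr9 (0.909), and RP1140B highest for Cd8a (0.956).

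Of the 94 genes 30 had a called difference of the step in the test over all 18 libraries, given here as log2 autonomy minus turnover. Over all 11521 genes tested 5.49% were called. Some of the 94 were picked for a large called difference, so their share cannot be read against that background. The values here are from the fit that took A and B libraries of one number as separate. With these summed, 145 genes were called in place of 633, and Ccnd3 and Mxd4 were not among them. The step was higher in autonomy for the lymphocyte genes Ccr9 (4.74), Cd52 (3.64), Cd1d1 (1.65) and Cd69 (2.01), the signalling genes Lck (0.76), Lat (1.14) and Jak1 (1.06), the cytokine receptor Il4ra (4.49), and for Btg2 (1.44), Sesn1 (0.98), Mxd4 (2.06) and Kdm5b (2.31). It was lower for the cycle genes Mcm6 (−1.36), Mcm2 (−1.18), Tk1 (−1.65), Plk1 (−2.33), Bub1b (−2.18), Mki67 (−2.15), Anln (−2.72), Ccne1 (−2.87) and Ccnd3 (−1.20). It was also lower for the chromatin genes Dnmt1 (−1.43), Hmga1 (−1.20) and H2afz (−1.25), for Npm1 (−0.87), Tpi1 (−1.93), Gzma (−1.48) and Arsi (−4.09). Il7r (7.86) and Kit (−7.64) have a group without reads, so their values are fitted and depend on the prior count. The call of Cd69 was lost with 11 of the single libraries left out, and that of Hmga1 with 7. In DN3 turnover Cd52 stood at 10.4, 8.82, 13.1 and 86.2 CPM and Il4ra at 4.19, 0.91, 3.94 and 17.5 CPM. Both were thus highest in RP1141B, the library that stood apart in DP genes. The same held for Ccr9, Cd1d1, Cd69, Lck, Lat, Jak1, Btg2, Sesn1 and Mxd4, though by little for Jak1 and Mxd4. In DN3 turnover Lck stood at 2345, 1981, 2398 and 3726 CPM and Btg2 at 105, 90.3, 107 and 220 CPM. Kdm5b was lowest in RP1141B. The differences above include that library.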

How the results depend on the processing

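The count of autonomy calls, 5382, stayed within 4823 to 5435 as single libraries were left out, and was 5620 in DESeq2, 5963 in limma voom and 5468 with no filter beyond 1 read; tested against a log2 fold of 1 (glmTreat) it was 2042. The turnover count ran from 2628 to 3628 with single libraries left out. The count of differences, 633, ran from 424 to 684 with single libraries left out and was 1037 in DESeq2, 841 in limma voom, 145 with A and B libraries summed and 288 with the replicate block. The RP numbers are shared by both stages, except RP1134 (DN3 autonomy only) and RP1136 (DP autonomy only). Deviations of the same-numbered autonomy libraries did not go together (correlations 0.034, 0.027, −0.019 and 0.057). Of these 4 DN3 libraries 1 correlated best with the DP library of its own number. With the number as a replicate block, 8 autonomy libraries gave 4734 calls, against 5091 without the block, and turnover gave 3226. The mitochondrial share differed by −0.75 to −0.36 points with single libraries left out, and by −0.63 with pairing in a sign-flip block (exact p = 0.375). With at least 5 reads required, genes detected differed by 74 in the other direction (exact permutation p = 0.468). For the top 20 genes the share differed by −0.77 points (no longer past 0.05). With single libraries left out, the Cd8a difference of the step ran from −3.47 to 1.12 and the Cd8b1 difference of the step from −2.15 to 1.69; the low ends, without the DN3 turnover library RP1141B, were called (edgeR adjusted p = 1.385e-05 and 0.001785). In limma voom they were −2.16 and −0.97, and with the replicate block −2.38 and −1.23, not called. Where a cause is not given by the setting itself, the cause was not tested. Depth limits genes near 0: below 3 counts in a library, a fall cannot be sized.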
